A study of Homo sapiens with 6 samples.

Results

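Collagen chain genes were followed in the human thyroid cancer line 8505C with and without a hairpin RNA against HHEX. The members were every named gene of the expression table whose symbol has the form COL, a type number, the letter A and a chain number, which gave 44 genes of 58735 named genes. Of these, 25 had 10 or more counts in 3 or more of the 6 libraries and are described one by one. A further 14 were counted below that level, and 5 (COL2A1, COL6A5, COL23A1, COL25A1 and COL26A1) had no count in any library. The 14 were COL1A2, COL5A3, COL6A3, COL6A6, COL8A2, COL9A1, COL9A3, COL10A1, COL14A1, COL19A1, COL20A1, COL22A1, COL24A1 and COL28A1.

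8505C is an established line from an anaplastic thyroid carcinoma, and HHEX is a homeodomain transcription factor. RNA taken with an mRNA capture kit was sequenced from 3 libraries titled as control hairpin RNA, whose genotype label reads wild-type, and from 3 titled as HHEX hairpin RNA, with the genotype HHEX KD. All 6 came from untreated cells plated in wells for a day, and the labels do not say whether the hairpin cells were a clone or a pool. The design text calls the replicates biological, whereas the titles give a pair of libraries in each group the same replicate number with different suffixes. The p-values therefore reflect how far these libraries vary, which may partly be technical. The count columns name the group and a running number but cannot be tied to single titles, and they are called KD1, KD2, KD3, control1, control2 and control3 here.

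Collagens are proteins of 3 chains wound into a triple helix. Fibrillar types form the banded fibrils of connective tissue, and type IV forms the network of basement membranes. The remaining types bind to fibrils, build beaded filaments or hexagonal networks, or span the cell membrane. Cells of epithelial origin, such as thyroid follicular cells, rest on a basement membrane, while most fibrillar collagen of a tissue is made by fibroblasts.

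The libraries held between 13333245 and 15144176 counts in named genes. HHEX was measured first, because it checks the labels. Its level was 12.6, 12.8 and 11.98 CPM (the gene's counts relative to the scaled total of its library) in the controls, against 14.8 CPM in KD1, 7.93 CPM in KD2 and 7.12 CPM in KD3. The library labelled KD1 was thus above every control, and KD2 and KD3 were below every control. The log2 fold change of HHEX over all libraries was -0.33 (SE 0.28), with an adjusted p of 0.527 by edgeR's quasi-likelihood test with Benjamini-Hochberg adjustment, and an exact two-sided permutation test over the libraries gave p = 0.40, where 0.10 is the smallest value that 3 against 3 libraries allow. Over genes, Pearson's r of log2 CPM was 0.989 between KD1 and KD2 but 0.955 and 0.956 between these and KD3, whereas KD3 reached 0.971 to 0.977 with the controls. KD3 therefore stood apart from the other KD libraries, and each result is given by library and, where it matters, without KD3. MKI67, a proliferation marker chosen after its values were seen, reached 400.5 CPM in KD1 and 468.5 CPM in KD2 but 73.2 CPM in KD3, beside 102 to 158 CPM in controls; its part in the collagen differences was not tested. In bulk RNA, fewer cells of a kind and less RNA per cell cannot be told apart.

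Markers of other cell types were low. Of 14 fibroblast markers, 4 (ACTA2, FBLN1, PDGFRB and S100A4) reached 1 CPM in any library, DPT was at 0, and the list summed to 28.0 to 37.6 CPM in controls and 19.0 to 32.9 CPM in KD libraries. PDGFRA, THY1, FAP, LUM and DCN were each under 1 CPM in every library. Of 8 endothelial markers only PECAM1 and CDH5 reached 1 CPM, and the list summed to 15.6 to 16.7 CPM in controls and 5.43 to 14.96 CPM in KD libraries, lowest in KD3. Of 8 leukocyte markers only CD14 reached 1 CPM, with sums of 2.99 to 4.78 CPM and 3.03 to 4.25 CPM. Of 9 thyroid markers the transcription factors NKX2-1, PAX8 and FOXE1 reached 1 CPM, with sums of 34.8 to 58.1 CPM and 27.1 to 45.4 CPM, while TG, the precursor of thyroid hormone, and SLC5A5, the iodide transporter, had at most 1 count in any library.

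The chains with the most counts in the control cells came from several types, with type IV chains beside COL5A1, COL8A1, COL12A1 and 2 chains of type VI. The 5 chains with the most counts (COL4A6, COL4A2, COL5A1, COL4A5 and COL8A1) held 64.0% of all collagen counts of the controls, and the top 10 held 93.7%, shares that also depend on the length of each gene. All chains together reached 1383, 1269 and 1247 CPM in the controls and 1382, 1491 and 1128 CPM in the KD libraries, in order of number. The groups overlapped for this total, with KD2 the highest and KD3 the lowest of the 6 libraries.

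Levels of different chains were compared as CPM per kilobase of exon, the length being the union of each gene's annotated exons. This union can be longer than the transcripts present, and it was 19293 bases for COL4A2 and 14738 for COL4A1 against 9282 for COL4A6. The order below depends on these lengths, and the SD over libraries does not cover an error in them. COL4A6, the type IV alpha 6 chain, led the controls with 22.96 ± 2.88 CPM per kilobase (SD, n = 3), and COL6A1 followed with 18.9 ± 2.62 (SD, n = 3). These were trailed by COL8A1 with 15.7 ± 0.910, COL5A1 with 14.0 ± 0.367, COL4A5 with 12.9 ± 0.640 and COL6A2 with 12.2 ± 2.80 CPM per kilobase (SD, n = 3 each). The middle of the order held COL12A1 with 9.997 ± 2.50, COL4A2 with 8.33 ± 0.896, COL3A1 with 6.73 ± 1.199, COL13A1 with 4.74 ± 0.488, COL4A1 with 3.32 ± 0.448 and COL11A1 with 2.02 ± 0.364 CPM per kilobase. The mean ± SD ranges of neighbours overlapped for COL4A6 with COL6A1, COL6A1 with COL8A1, COL4A5 with COL6A2, COL6A2 with COL12A1, COL12A1 with COL4A2 and COL4A2 with COL3A1, so these places in the order are not resolved. The wide range of COL6A2 also reached those of COL5A1 and COL8A1, and that of COL12A1 reached that of COL4A5. From COL3A1 down to COL11A1, the ranges of neighbours did not overlap. The other 13 chains were each below 1 CPM per kilobase, from COL21A1 with 0.970 ± 0.150 down to COL18A1 with 0.0572 ± 0.0373.

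**Figure D1:**
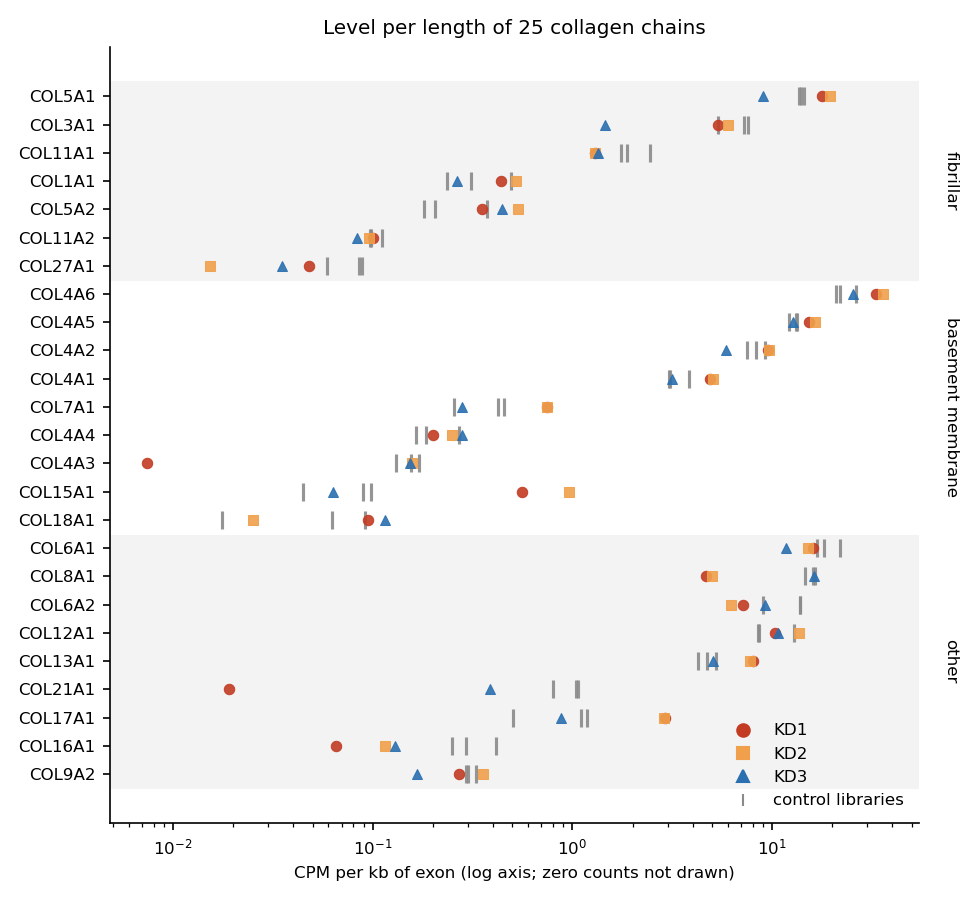
Level per length of the 25 chains in CPM per kilobase of exon on a log axis, with the chains grouped as fibrillar, basement membrane and other and sorted by the control mean. Grey ticks are the 3 control libraries and coloured symbols are KD1, KD2 and KD3; COL4A6 leads the controls at 22.96, and zero counts are not drawn.

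Single chains of a heterotrimer were not at equal levels. COL1A1, one chain of type I collagen, the main fibril of bone and skin, was at 0.236, 0.311 and 0.491 CPM per kilobase in the controls, while COL1A2, its partner, was at 0.0233 CPM per kilobase in control3, from 4 counts, and had none in the other libraries. COL6A3, the third chain of the beaded filament type VI, was at 0.00381 to 0.0237 CPM per kilobase in controls against 16.7 to 21.8 CPM per kilobase for COL6A1. Per kilobase, COL5A1 exceeded COL5A2, with which it forms type V fibrils, by 75.8, 68.4 and 38.4 times in the controls and by 50.5, 36.5 and 20.3 times in KD1, KD2 and KD3. The groups overlapped for this ratio, which was lowest in KD3.

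The COL4A genes lie in head-to-head pairs that are read outward from a short shared stretch. The RefSeq start sites of COL4A1 and COL4A2 on chromosome 13 were 127 bases apart, those of COL4A4 and COL4A3 on chromosome 2 were 419 bases apart, and the closest pair of COL4A6 and COL4A5 on the X chromosome was 380 bases apart. COL4A6 exceeded COL4A5 per kilobase by 1.96, 1.71 and 1.66 times in the controls and by 2.16, 2.19 and 1.99 times in KD1, KD2 and KD3. COL4A2 exceeded COL4A1 by 2.41, 2.73 and 2.42 times in the controls and by 1.95, 1.90 and 1.87 times in KD1, KD2 and KD3. The size of both ratios depends on the exon lengths used. Between the groups these ratios did not overlap, that of COL4A6 to COL4A5 being higher and that of COL4A2 to COL4A1 lower in all 3 KD libraries. The ratio of COL4A4 to COL4A3 did overlap, at 1.19, 1.26 and 1.58 in the controls and 27.2, 1.58 and 1.81 in KD1, KD2 and KD3, the first resting on 1 count of COL4A3. Of 10 ratios that were computed, between partner chains and of COL5A2 to COL3A1, 3 did not overlap, and none was tested. The other was COL11A2 to COL11A1, where COL11A2 rests on 8 to 10 counts a library. The share over all pairs of genes was not computed. Of single tested genes, 11.6% had all KD libraries above and 13.3% had all below the controls, so the 3 ratios are not read as a result about these chains.

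Upstream windows from RefSeq (GRCh38.p14) were found for 32 of the 44 genes, with 44 windows in all, of which 28 belong to 20 of the chains described here. A window holds the 250 bases before a start site, and what is printed is its longest stretch outside annotated exons. The whole windows were searched on both strands for a core promoter element, TATAAA, and for the element CCAAT that many promoters hold upstream. They were also searched for the box known from Sp1 binding, GGGCGG, for the site of AP-1 factors, TGANTCA, and for the core that many homeodomains bind, TAATTA. The motif TATAAA was in 8 of the 44 collagen windows against 10.7% of all 35116 windows, CCAAT in 12 against 32.0%, and GGGCGG in 24 against 42.6%. TGANTCA was in 1 collagen window against 6.57% of all windows and TAATTA in 1 against 4.35%, both in COL10A1. Windows of one gene can overlap, and a match is only a run of letters. The windows of the X-linked pair are shown because they share 121 bases and the genes lead the type IV levels, COL5A1 because it is the most abundant fibrillar chain, and COL17A1 because it had the highest fold change of the tested chains. COL4A5 is at chrX:108439588-108439837 on the plus strand, COL4A6 at chrX:108439498-108439708 on the minus strand, COL5A1 at chr9:134641553-134641773 on the plus strand and COL17A1 at chr10:104085958-104086130 on the minus strand. Capitals mark the matches: CCAAT or its complement ATTGG in COL4A5, COL4A6 and COL17A1, TATAAA in COL17A1 and CCGCCC, the complement of GGGCGG, in COL5A1.
COL4A5: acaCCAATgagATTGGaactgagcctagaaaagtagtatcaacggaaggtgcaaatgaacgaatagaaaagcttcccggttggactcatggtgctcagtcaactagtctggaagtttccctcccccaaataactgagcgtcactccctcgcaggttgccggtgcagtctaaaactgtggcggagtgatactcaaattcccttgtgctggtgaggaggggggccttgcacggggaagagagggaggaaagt
COL4A6: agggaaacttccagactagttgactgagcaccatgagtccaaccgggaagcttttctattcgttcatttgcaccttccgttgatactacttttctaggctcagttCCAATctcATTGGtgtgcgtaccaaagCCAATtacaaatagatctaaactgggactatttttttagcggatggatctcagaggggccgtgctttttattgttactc
COL5A1: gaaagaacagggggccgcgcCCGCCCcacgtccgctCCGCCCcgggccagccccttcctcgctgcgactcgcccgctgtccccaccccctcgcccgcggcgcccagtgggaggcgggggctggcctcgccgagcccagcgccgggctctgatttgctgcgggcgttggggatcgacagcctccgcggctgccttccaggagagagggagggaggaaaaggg
COL17A1: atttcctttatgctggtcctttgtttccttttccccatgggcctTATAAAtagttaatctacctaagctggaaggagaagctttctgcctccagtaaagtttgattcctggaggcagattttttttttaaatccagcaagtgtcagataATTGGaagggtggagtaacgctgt

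The main comparison asked which chains differ between the HHEX hairpin and control libraries. None of the 23 tested chains passed an adjusted p of 0.05 by edgeR's quasi-likelihood test, in which 26 of 14280 genes, or 0.182%, passed. Before adjustment 9 of the 23 chains had p under 0.05, against 20.6% of all tested genes, of which COL4A6, COL13A1 and COL17A1 were higher and COL6A1, COL6A2, COL11A1, COL16A1, COL21A1 and COL27A1 lower. DESeq2 called 1 of the 23 (COL16A1, lower), against 5.98% of all genes, and gave COL18A1 no adjusted p. With no filter on low counts, edgeR called 4 of 39 chains (COL15A1 and COL17A1 higher, COL6A2 and COL16A1 lower) against 4.8% of all genes. Fold changes were positive for 13 chains and negative for 10, with a median of 0.14 on the log2 scale beside -0.01 over all tested genes. COL11A2 and COL15A1 had enough counts in too few libraries for the filter of the fit.

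**Figure D2:**
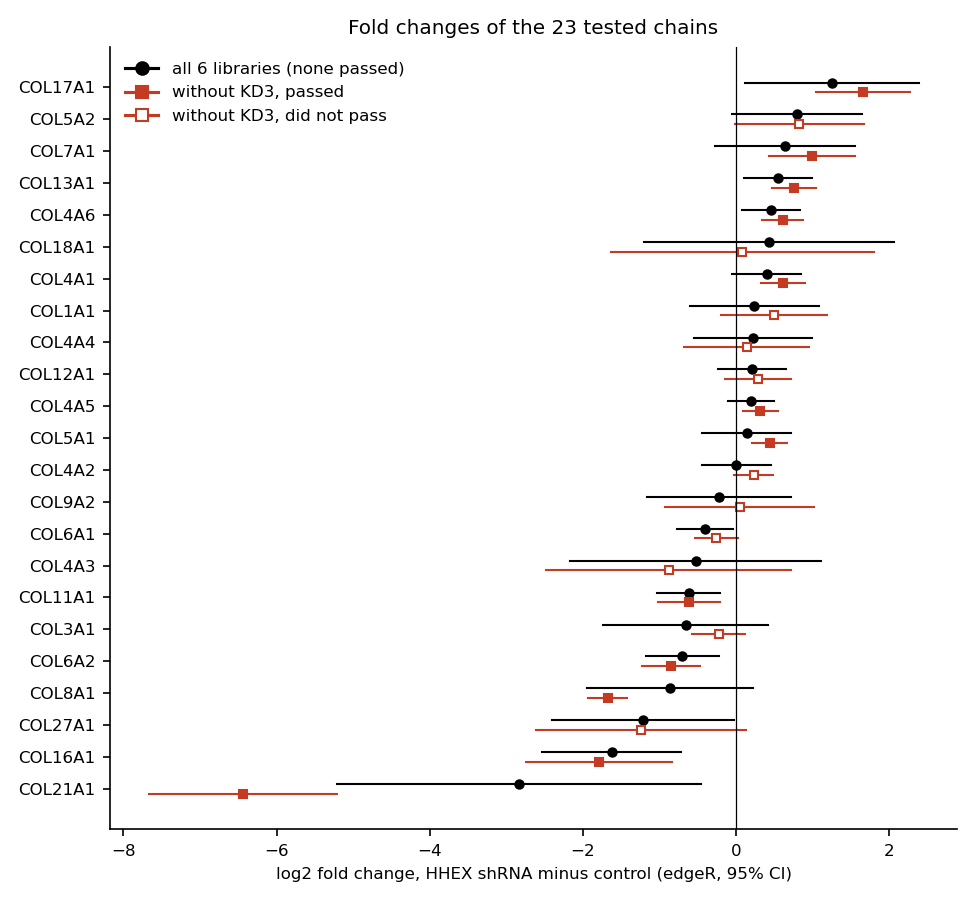
Log2 fold change of the 23 tested chains, HHEX hairpin minus control, with 95% confidence intervals from edgeR, for all 6 libraries (black) and without KD3 (red; filled squares passed an adjusted p of 0.05). No black point passed, and the red points of COL21A1 and COL8A1 lie at -6.44 and -1.67. COL21A1 met the filter of the red fit through the controls alone, where it was high.

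No chain had all KD libraries above all controls, where 11.6% of tested genes did. All KD libraries were below all controls for 5 of the 23 chains (COL6A1, COL11A1, COL16A1, COL21A1 and COL27A1), against 13.3% of tested genes. COL27A1 met the filter of the full fit through the controls alone, where it was high. Its place here and its unadjusted p are therefore no support for a difference. Without KD3 the picture by test was different: 8 of 26 tested chains passed as higher (COL4A1, COL4A5, COL4A6, COL5A1, COL7A1, COL13A1, COL15A1 and COL17A1), against 16.5% of genes, and 6 passed as lower (COL6A2, COL8A1, COL8A2, COL11A1, COL16A1 and COL21A1), against 15.1%. COL15A1 met the filter of that fit through its counts in KD1 and KD2, where it was high. COL8A2 and COL21A1 met it through those in the controls, where each was high. Their calls are therefore no support for a difference. Singling out the fit without KD3 was a choice made after the libraries were seen. That fit compares 2 libraries that are nearly alike, and may share a replicate number, with 3 controls. Its small p-values, here and below, may therefore reflect mainly technical spread. HHEX itself was not called in it (log2 fold change -0.11, SE 0.23, adjusted p 0.754 by edgeR). Without KD1, which leaves the 2 libraries with lower HHEX, the log2 fold change of HHEX was -0.73 (SE 0.22, adjusted p 0.330 by edgeR). KD1 had the highest HHEX of all libraries, so this value is no check of the labels. No chain was called without KD1 or without KD2, but neither was any of the 14789 and 14799 genes tested in these fits. Values given without KD3 therefore compare the libraries labelled KD1 and KD2 with the controls, KD1 having HHEX above and KD2 below them.

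Taken one library at a time, KD1 was more than 2-fold above the control mean for 2 of the 25 chains (COL15A1 and COL17A1; 3.96% of all genes under the same count rule) and more than 2-fold below it for 4 (COL4A3, COL8A1, COL16A1 and COL21A1; 8.55% of genes). KD2 was above for 4 (COL5A2, COL7A1, COL15A1 and COL17A1; 4.37% of genes) and below for 4 (COL8A1, COL16A1, COL21A1 and COL27A1; 8.57% of genes). KD3 was above for COL18A1 alone (1.97% of genes) and below for 3 (COL3A1, COL16A1 and COL21A1; 3.75% of genes). COL16A1 and COL21A1 were the chains more than 2-fold below the control mean in all 3. Controls also departed from each other: against the mean of the other controls, COL18A1 was more than 2-fold lower in control1 and higher in control3. COL17A1 was more than 2-fold lower in control3. KD1 and KD2 lay outside the control range on the same side for 16 of the 25 chains, against 57.3% of genes under the same count rule. In KD3, 5 of these 16 were outside on that side as well, 9 were within the control range, and COL4A2 and COL5A1 were outside on the other side.

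**Figure D3:**
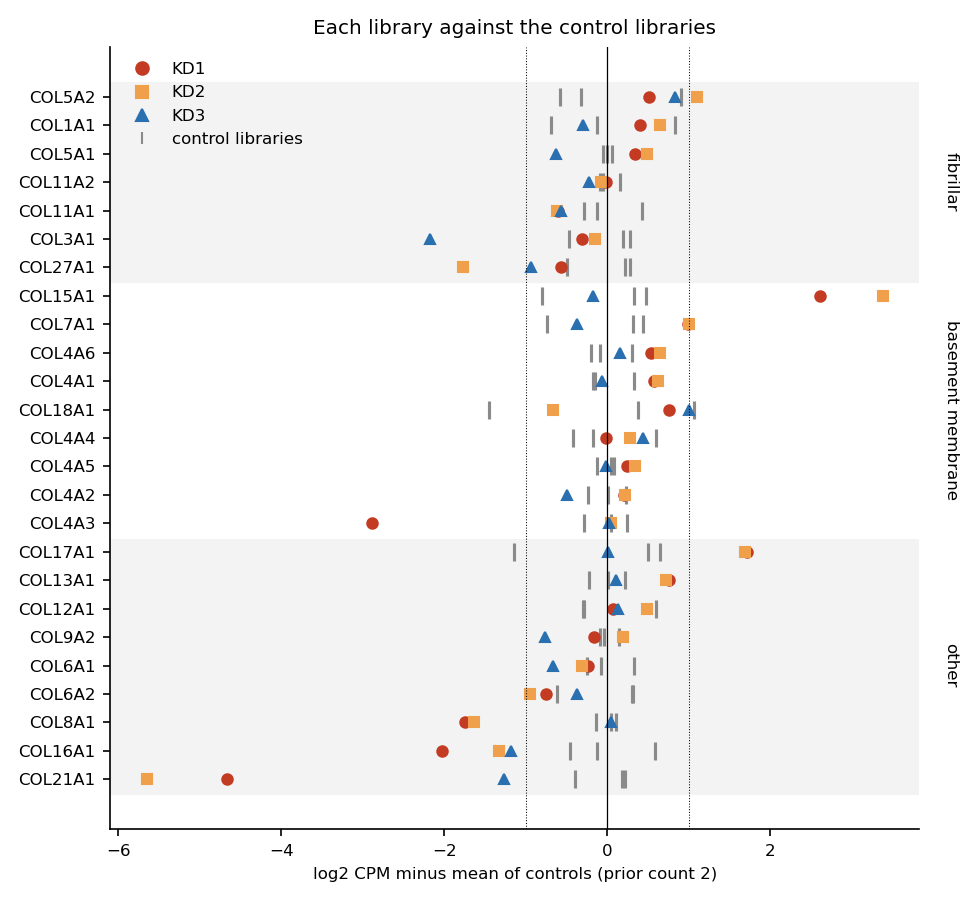
Log2 CPM of each KD library minus the mean of the controls (prior count 2) for the 25 chains by type, with grey ticks giving each control minus the mean of the other controls and dotted lines marking 2-fold. KD1 and KD2 plot near each other for most chains, and KD3 departs from them for COL21A1, COL15A1, COL3A1, COL8A1, COL17A1, COL7A1 and COL5A1, among others.

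Among the 11 fibrillar chains, 7 were described and 6 tested, with none called and 3 fold changes in each direction (median -0.24). On the log2 scale, KD1, KD2 and KD3 differed from the controls by a median of -0.02, -0.08 and -0.57. Summed fibrillar CPM was 230.2, 231 and 225 in the controls and 256, 283 and 130.1 in KD1, KD2 and KD3. KD1 and KD2 were thus above, and KD3 below, a control group whose 3 values were close together.

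COL5A1 (chr9:134641774-134844843, plus strand), the chain of type V collagen that helps start fibrils, made up most of that sum. It was at 153, 157 and 161 CPM in the controls and 199, 219 and 101 CPM in KD1, KD2 and KD3. KD1 and KD2 were above every control and KD3 below every control, which gave a log2 fold change of 0.14 (SE 0.25, adjusted p 0.778 by edgeR's quasi-likelihood test). Without KD3 it was 0.44 (SE 0.11, adjusted p 0.00746), and without KD2 it turned to -0.06. COL5A2, its partner, was at 1.34, 1.53 and 2.80 CPM in the controls and 2.63, 3.9996 and 3.31 CPM in KD1, KD2 and KD3, with overlap between control3 and KD1 and a log2 fold change of 0.80 (95% interval -0.05 to 1.65, adjusted p 0.261).

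COL3A1 (chr2:188974320-189012746, plus strand), the fibril chain of soft tissue and vessel walls, was at 49.5, 51.5 and 36.5 CPM in the controls and 36.4, 40.8 and 9.94 CPM in KD1, KD2 and KD3. KD1 and KD2 were near the lowest control, and KD3 stood at 21.7% of the control mean. The log2 fold change was -0.66 (SE 0.46, adjusted p 0.441 by edgeR), and without KD3 it was -0.22 (adjusted p 0.314). COL11A1 (chr1:102876467-103108872, minus strand), a chain of cartilage fibrils that is also made by tumour stroma, was at 22.1, 15.9 and 17.1 CPM in the controls and 11.9, 11.8 and 12.2 CPM in the KD libraries. The KD libraries were alike and lay below every control, at a log2 fold change of -0.62 (95% interval -1.03 to -0.21) with an adjusted p of 0.135, and of 0.0258 without KD3.

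COL27A1, a fibrillar chain of cartilage, was at 0.822, 1.195 and 1.24 CPM in the controls and 0.674, 0.214 and 0.493 CPM in KD1, KD2 and KD3, a log2 fold change of -1.22 (95% interval -2.41 to -0.03, adjusted p 0.234 by edgeR). These levels rest on 3 to 19 counts a library. COL27A1 met the filter of the fit through the controls alone, where it was high, so its interval is no support for a difference. COL1A1 reached 4.31 CPM in KD1, 5.14 CPM in KD2 and 2.61 CPM in KD3, beside 2.32, 3.05 and 4.82 CPM in the controls, with a log2 fold change of 0.24 (SE 0.37, adjusted p 0.740) and overlapping groups. COL11A2 had 10 counts in each control and 10, 9 and 8 in KD1, KD2 and KD3.

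**Figure D4:**
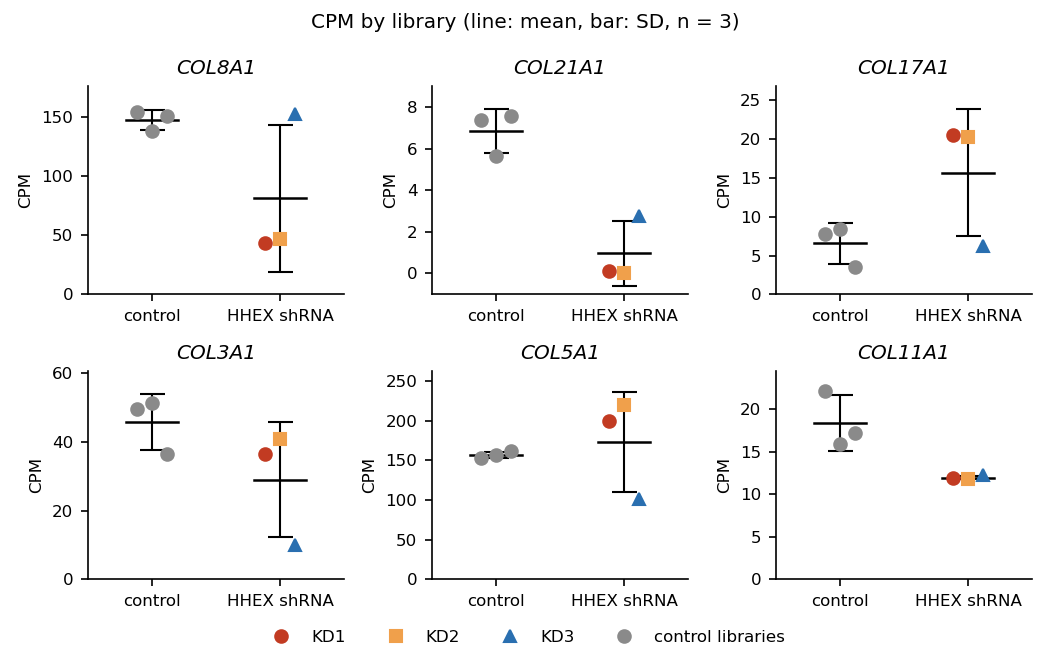
CPM of 6 chains in each library, with the group mean as a line and the SD as a bar (n = 3 per group); for COL21A1 the SD bar reaches below 0. COL8A1 and COL17A1 in KD3 plot with the controls, COL3A1 and COL5A1 have KD3 as their lowest library, and COL11A1 and COL21A1 have all KD libraries below the controls.

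All 9 basement membrane chains were described and 8 tested, with none called, 7 positive fold changes and a median of 0.31. KD1, KD2 and KD3 differed from the controls by a median of 0.53, 0.34 and -0.01, beside -0.02, -0.02 and -0.01 over all genes under the count rule. Summed CPM was 644, 551 and 559 in the controls and 759.7, 806 and 557 in KD1, KD2 and KD3. KD1 and KD2 exceeded every control, and KD3 lay within the control range. Their share of all collagen counts was 46.6%, 43.4% and 44.8% in the controls and 55.0%, 54.1% and 49.3% in KD1, KD2 and KD3. The groups did not overlap for this share, which was not tested. In KD3 the higher share went with a lower fibrillar sum (130.1 CPM) and collagen total (1128 CPM), not with a higher basement membrane sum.

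COL4A6 (chrX:108155607-108439497, minus strand) was at 244, 193 and 203 CPM in the controls and 307, 332 and 236 CPM in KD1, KD2 and KD3. KD1 and KD2 were above every control, and KD3 lay just under the highest control. Its log2 fold change was 0.45 (95% interval 0.08 to 0.83, adjusted p 0.189 by edgeR), and 0.61 without KD3 (adjusted p 0.00296). COL4A5 (chrX:108439844-108697545, plus strand), the chain altered in X-linked Alport syndrome, was at 159, 145 and 156 CPM in the controls and 181, 194 and 152 CPM in KD1, KD2 and KD3. Its log2 fold change was smaller, 0.20 (SE 0.13, adjusted p 0.411), and 0.32 without KD3 (adjusted p 0.0391).

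COL4A1 and COL4A2 (chr13:110148963-110307233, minus strand, and chr13:110305812-110513209, plus strand) form the type IV network found in nearly every basement membrane. COL4A1 was at 56.6, 44.9 and 45.4 CPM in the controls and 72.4, 74.8 and 46.4 CPM in KD1, KD2 and KD3, a log2 fold change of 0.40 (SE 0.20, adjusted p 0.286 by edgeR) that was 0.61 without KD3 (adjusted p 0.00372). COL4A2 was at 178, 160.2 and 144 CPM in the controls and 184, 186 and 113 CPM in KD1, KD2 and KD3. KD1 and KD2 were slightly above its controls and KD3 below them, at a log2 fold change of 0.01 (95% interval -0.44 to 0.46, adjusted p 0.990), whose sign turned with the scaling and with the library left out.

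The chains of the kidney network were rare. COL4A4 had 25, 25 and 42 counts in the controls and 30, 35 and 40 in KD1, KD2 and KD3, a log2 fold change of 0.23. COL4A3 had 19, 18 and 24 counts in the controls and 1, 20 and 20 in KD1, KD2 and KD3, so the low value of KD1 alone, 4.84% of the control mean with a 95% Poisson interval of 0.123% to 27.0%, set its log2 fold change of -0.53. Poisson intervals cover counting error only, since the reads carry no molecular identifiers, and 120 bases of the exons of COL4A3 also belong to the gene AC097662.1.

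COL7A1, which forms the anchoring fibrils beneath epithelia, was at 2.84, 4.71 and 5.01 CPM in the controls and 8.22, 8.28 and 3.10 CPM in KD1, KD2 and KD3. KD1 and KD2 exceeded every control while KD3 lay within the control range, which gave a log2 fold change of 0.64 (SE 0.40, adjusted p 0.386 by edgeR) and of 1.00 without KD3 (adjusted p 0.0111). COL15A1, a basement-membrane proteoglycan collagen, had 4, 9 and 10 counts in the controls and 55, 90 and 6 in KD1, KD2 and KD3. It had enough counts in too few libraries for the filter of the full fit. Without KD3 it met the filter through KD1 and KD2, where it was high. Its log2 fold change of 3.28 there (adjusted p 0.000111 by edgeR) is therefore no support for a difference. COL18A1, the source of endostatin, had 2, 8 and 12 counts in the controls and 12, 3 and 14 in the KD libraries, and 1401 bases of its exons also belong to SLC19A1, whose level was 26.1 to 55.3 CPM.

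**Figure D5:**
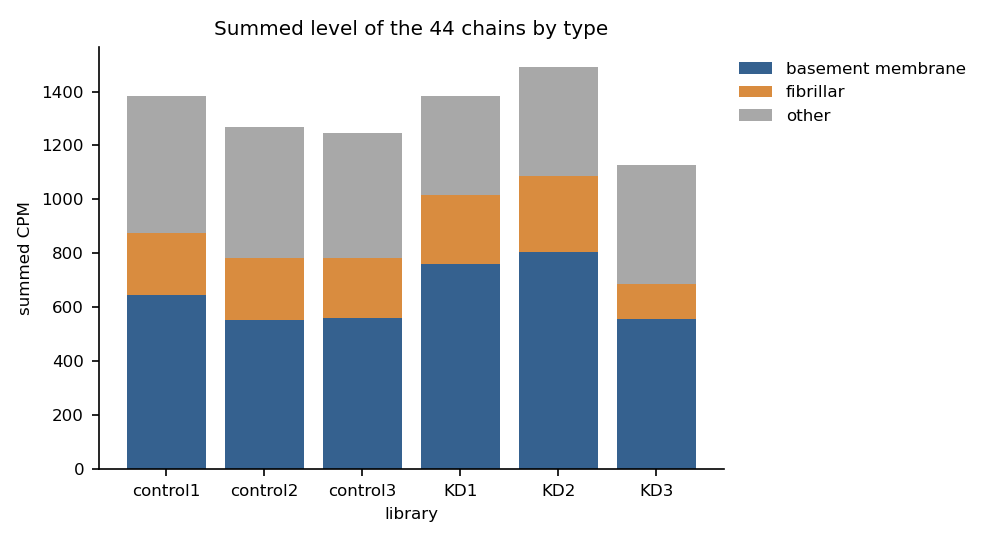
Summed CPM of all 44 chains in each library, stacked by type (basement membrane, fibrillar and other). The basement membrane part is larger in KD1 and KD2 at 759.7 and 806 CPM, the fibrillar part is smallest in KD3 at 130.1 CPM, and the chains of other types sum to less in each KD library than in any control.

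Of the 24 chains of other types, 9 were described and tested, with none called, 3 positive and 6 negative fold changes and a median of -0.40. Their summed CPM was 509, 487 and 464 in the controls and 367, 402 and 442 in KD1, KD2 and KD3. Every KD library was below every control for this sum, and KD3 was the nearest to the controls. Without COL8A1 the groups overlapped, at 354, 349 and 313 CPM in the controls and 323, 355 and 289 CPM in KD1, KD2 and KD3. Per chain, the median difference from the controls was -0.23, -0.31 and -0.37 in KD1, KD2 and KD3.

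COL8A1 (chr3:99638475-99799226, plus strand), which forms hexagonal networks under endothelia, differed between the KD libraries. It was at 154, 138 and 150.5 CPM in the controls and 43.8, 47.2 and 153 CPM in KD1, KD2 and KD3. KD1 and KD2 stood at 29.7% and 32.0% of the control mean, and KD3 at 103%. The log2 fold change was -0.86 with a wide interval of -1.94 to 0.22 (adjusted p 0.323 by edgeR), and -1.67 without KD3 (SE 0.12, adjusted p 9.62e-07). COL8A2, its partner chain, had 9, 11 and 12 counts in the controls and 1, 3 and 6 in KD1, KD2 and KD3.

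The type VI chains COL6A1 and COL6A2 lie near each other on chromosome 21 (chr21:45981737-46005050 and chr21:46098097-46132849, plus strand). COL6A1 was at 96.9, 116 and 89.3 CPM in the controls and 85.2, 80.8 and 62.8 CPM in KD1, KD2 and KD3, with no overlap, a log2 fold change of -0.40 (95% interval -0.77 to -0.04) and an adjusted p of 0.207 by edgeR. COL6A2 was at 48.4, 74.6 and 74.4 CPM in the controls and 38.3, 33.4 and 49.9 CPM in KD1, KD2 and KD3. Control1 lay below KD3 for COL6A2, whose log2 fold change was -0.70 (95% interval -1.18 to -0.22, adjusted p 0.145) and -0.85 without KD3 (adjusted p 0.00309).

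Of the fibril-associated chains, COL12A1, which bridges fibrils and their surroundings, was the most abundant, at 161, 107 and 106 CPM in the controls and 129, 171 and 134 CPM in KD1, KD2 and KD3. Its groups overlapped, with a log2 fold change of 0.21 (95% interval -0.23 to 0.65, adjusted p 0.554 by edgeR). COL16A1, found at the rim of fibrils, was at 2.32, 2.72 and 3.84 CPM in the controls and 0.607, 1.07 and 1.198 CPM in KD1, KD2 and KD3. Each KD library was thus below every control, at a log2 fold change of -1.62 (95% interval -2.53 to -0.71). Its adjusted p was 0.110 by edgeR, 0.0204 by DESeq2, 0.0166 with no filter on low counts and 0.00828 without KD3; leaving out any other library gave 0.221 to 0.375.

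COL21A1 (chr6:56056590-56394094, minus strand), a small fibril-associated chain, had the lowest fold change. It had 99, 85 and 116 counts in the controls, or 7.40, 5.64 and 7.55 CPM, and 2, 0 and 39 counts in KD1, KD2 and KD3. KD2 was at least 32.0-fold lower than the control mean, taking 3 counts in that library as its limit. KD1 stood at 1.96% of the control mean (95% Poisson interval 0.238% to 7.09%) and KD3 at 40.0% (28.5% to 54.7%). The fitted log2 fold change was -2.83 (SE 1.01, adjusted p 0.192 by edgeR), and -6.44 without KD3 (adjusted p 5.2e-06). The latter depends on the default prior count of the fit, not the 2 used for log2 CPM, because KD2 had no count. Without KD3, COL21A1 met the filter through the controls alone, where it was high. That call is therefore no support for a difference. COL9A2, a cartilage chain, had 17, 21 and 19 counts in the controls and 17, 21 and 10 in KD1, KD2 and KD3.

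The transmembrane chains COL17A1 and COL13A1 were both higher in KD1 and KD2 than in any control. COL17A1 (chr10:104031286-104085957, minus strand), a hemidesmosome protein of epithelia, was at 7.77, 8.37 and 3.58 CPM in the controls and 20.5, 20.2 and 6.20 CPM in KD1, KD2 and KD3. KD3 lay within the control range, and the log2 fold change was 1.25 (95% interval 0.12 to 2.38, adjusted p 0.210 by edgeR), or 1.66 without KD3 (adjusted p 0.000974). COL13A1 (chr10:69801867-69964275, plus strand), which is known at the neuromuscular junction, was at 27.9, 30.8 and 25.1 CPM in the controls and 47.1, 45.7 and 30.0 CPM in KD1, KD2 and KD3. Its log2 fold change was 0.55 (SE 0.19, adjusted p 0.179) and 0.76 without KD3 (adjusted p 0.00104).

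Of the chains below the count rule, COL10A1, the collagen of growth plate cartilage, had 11 counts in KD2, 3 in KD3 and none elsewhere, and COL9A3 had 7, 5 and 10 counts in the controls and 0, 1 and 3 in KD1, KD2 and KD3. COL9A3 shares 45 exon bases with TCFL5. For chains that overlap another gene, the strand of the counts is not given in the sources used here, so reads of the 2 genes could be mixed.

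Collagen chains need hydroxylation, folding, export, cleavage and crosslinking before they form fibrils or networks. Of 36 genes for these steps, 32 were tested and none was called by edgeR, with 12 positive and 20 negative fold changes and a median of -0.04. Without KD3, 4 of 32 passed as higher and 8 as lower, against 16.5% and 15.1% of all genes in that fit. The lower calls include ADAMTS2, which met the filter of that fit through the controls alone, where it was high. Its call is therefore no support for a difference. P4HB, the shared subunit of the prolyl 4-hydroxylases and a disulfide isomerase, was at 812, 750.3 and 687 CPM in the controls and 501, 471 and 519 CPM in KD1, KD2 and KD3. Every KD library was below every control, at a log2 fold change of -0.59 (SE 0.14, adjusted p 0.105). PPIB, a prolyl isomerase of the procollagen folding complex, was at 129, 166 and 111 CPM in the controls and 67.9, 71.4 and 94.1 CPM in KD1, KD2 and KD3, again without overlap, at -0.80 (SE 0.19, adjusted p 0.105).

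Of the remaining genes with the smallest p, BMP1, which cleaves the carboxyl propeptide, had a log2 fold change of -0.49 (adjusted p 0.113 by edgeR) and FKBP10, a procollagen chaperone, one of -0.51 (adjusted p 0.131). PLOD2, which hydroxylates the lysines used for crosslinks, was at 423, 425 and 355 CPM in the controls and 561, 583 and 496 CPM in KD1, KD2 and KD3, all above the controls, at 0.45 (adjusted p 0.154). ADAMTS3, a procollagen peptidase, had a log2 fold change of 1.30 (adjusted p 0.200) and LOXL3, a lysyl oxidase, one of -0.51 (adjusted p 0.318). MIA2, an export receptor of the endoplasmic reticulum, split as COL8A1 did: it was at 96.1, 106 and 106 CPM in the controls and 35.4, 34.8 and 108 CPM in KD1, KD2 and KD3, with a log2 fold change of -0.79 (adjusted p 0.329) and of -1.52 without KD3 (adjusted p 1.81e-06).

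Among 15 proteins that bind collagen or signal from it, 10 were tested and none was called by edgeR, with 5 fold changes in each direction and a median of -0.06. Without KD3, 11 were tested, of which 5 passed as higher and 4 as lower, against 16.5% and 15.1% of all genes. DDR2, a receptor tyrosine kinase for fibrillar collagen, was at 7.40, 6.51 and 10.9 CPM in the controls and 2.56, 3.29 and 5.22 CPM in KD1, KD2 and KD3, all below the controls, at a log2 fold change of -1.17 (SE 0.33, adjusted p 0.131). DDR1, its relative that also binds type IV collagen, was at -0.36 (adjusted p 0.158), and PXDN, the peroxidase that crosslinks type IV collagen, at -0.45 (adjusted p 0.154). THBS1, a matrix glycoprotein, was at 135, 116 and 140 CPM in the controls and 425, 462 and 148 CPM in KD1, KD2 and KD3. All KD libraries of THBS1 were above all controls, KD3 only just, and the log2 fold change was 1.41 (SE 0.39, adjusted p 0.134).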

How the data were processed

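RNA from 3 control hairpin and 3 HHEX hairpin samples of 8505C was isolated with Trizol and made into libraries with TIANSeq kits, per the labels' protocols. The authors deposited one table with raw counts per gene and library, per the file headers; its 6 columns of length-scaled values were not used. The aligner, counter, build and strand setting are not stated in the labels or headers. The coordinates of 58683 named genes, and of 43 of 44 collagen rows, equal GENCODE release 29 (GRCh38).

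Unnamed loci (998 rows, 0.239% to 0.298% of counts) were left out. Counts were scaled by TMM to CPM, and genes passing filterByExpr were tested with edgeR 4.0.16 (glmQLFit with robust estimation, glmQLFTest, R 4.3.3), with Benjamini-Hochberg adjustment over all 14280 tested genes and a threshold of 0.05. Log2 CPM used a prior count of 2. Alternatives were other scalings, filters and prior counts, DESeq2 1.42.0, limma-voom (limma 3.58.1) and each library left out. The edgeR fit was tested on simulated data. The named chains are those with 10 or more counts in 3 libraries, with full statistics for the 10 most abundant per length, the 5 highest and 5 lowest fold changes and any called. Of the other lists, up to 8 and 4 genes with the smallest p are named. The members and lists were chosen with earlier results of these data known.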

Additional observations from a re-analysis of the deposited data

How the results depend on the processing

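No paired analysis was possible because the count columns cannot be tied to the titles that carry replicate numbers. Against 26 genes and no chain called in the full comparison, 1359 genes and 4 chains were called with no filter on low counts, and 854 genes and 1 chain with DESeq2. Leaving out one library gave 0 to 4675 genes and 0 to 14 chains, the highest values without KD3; edgeR called 0 genes when KD1, KD2, control2 or control3 was left out, with 1789, 1625, 1947 and 1806 at an unadjusted p under 0.05. The collagen synthesis and maturation list had 4 calls with no filter, 3 with DESeq2 and 0 to 12 with a library left out, and the partners list had 3, 3 and 0 to 9. The median log2 fold change of all chains was -0.06 to 0.14 with a library left out, the lowest without KD2, and that of the chains of other types was -0.49 to -0.26. The median of the synthesis list was -0.11 with upper-quartile scaling and -0.11 to 0.033 with a library left out, and that of the partners list was -0.31 to 0.13. The sign of COL4A2 turned to -0.058 with upper-quartile scaling, -0.033 with no scaling factors and -0.027 with limma-voom, and its fold change was -0.10 to 0.23 with a library left out. With a library left out, COL4A3 ranged from -0.92 to 0.029 (positive without KD1), COL5A1 from -0.06 to 0.44 (negative without KD2) and COL9A2 from -0.48 to 0.047 (positive without KD3). Over the chains, 296 of 321 fold changes kept direction and side of the threshold, 16 passed it only in the alternative and 9 changed sign. Apart from these fewer samples or tested genes, the cause of the shifts was not tested. Chains with under about 20 counts a library, such as COL18A1 and COL27A1, are limited by depth.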
